A study of Mus musculus with 2 samples.

Results

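The genes of oxidative phosphorylation were described in nuclei isolated from mouse medial prefrontal cortex, those encoded in mitochondrial DNA beside those encoded in the nucleus. Members were chosen by symbol, taking the mt- protein genes, the numbered Nduf subunits, Sdha to Sdhd, the Uqcr and Atp5 genes, and the Cox5 to Cox8 subunits. Of 95 matching symbols, Cox8b and Cox8c were listed at 0 in both libraries, which left 93 members among 31053 genes, 13 mitochondrially encoded and 80 nuclear. The tissue came from male mice, either Npas2 knockouts or wild-type littermates, killed at zeitgeber time 20 under a cycle with 12 h of light. The tissues of 4 mice of a genotype were pooled into 1 library, so no difference below has a replicate check and no test was possible. They are called the KO-labelled and the WT-labelled library. Neither the knockout allele and its deleted part nor the ages of the mice are given in the labels. NPAS2 is a transcription factor of the circadian clock, and the series asks how it bears on this region and on napping.

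Oxidative phosphorylation passes electrons from NADH and succinate through complexes I to IV of the inner mitochondrial membrane to oxygen, and complex V, the ATP synthase, uses the proton gradient to make ATP. Core subunits of complexes I, III, IV and V are encoded in mitochondrial DNA and transcribed inside the organelle, whereas the other subunits, and all of complex II, are encoded in the nucleus. Neurons depend on this pathway for the ATP that ion pumping consumes.

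The mitochondrial genes lie close together, and some share bases, so that a read there cannot always be given to a single gene. The stretches below are shown because they hold such shared bases, in capitals, with the flanking bases in lower case. They were read from the GENCODE M21 transcripts on mm10, plus strand, at chrM:7907-7989 for the first and chrM:10147-10193 for the second.
mt-Atp8 and mt-Atp6: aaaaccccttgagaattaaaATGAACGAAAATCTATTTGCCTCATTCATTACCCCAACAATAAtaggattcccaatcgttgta
mt-Nd4l and mt-Nd4: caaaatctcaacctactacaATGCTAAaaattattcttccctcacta
The first pair shares 43 bases and the second 7. No source used here says how reads in shared bases were counted, so values of mt-Atp8 and mt-Nd4l are uncertain. mt-Nd5 and mt-Nd6 also overlap, but on opposite strands, and no source used here says whether strand was used in counting.

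Promoters are shown for 4 nuclear members at the ends of the range described below. Uqcr11 and Ndufb7 had the lowest ratio to the WT-labelled library among the nuclear members of complexes III and I above the floor on low levels given below, and Uqcrc1 and Ndufs4 the highest. Each is the RefSeq window of GRCm38.p6 from 250 bases before to 50 after the annotated start, written along the gene's strand, and capitals mark a match to a searched motif.
Uqcr11, chr10:80406772-80407071, minus strand: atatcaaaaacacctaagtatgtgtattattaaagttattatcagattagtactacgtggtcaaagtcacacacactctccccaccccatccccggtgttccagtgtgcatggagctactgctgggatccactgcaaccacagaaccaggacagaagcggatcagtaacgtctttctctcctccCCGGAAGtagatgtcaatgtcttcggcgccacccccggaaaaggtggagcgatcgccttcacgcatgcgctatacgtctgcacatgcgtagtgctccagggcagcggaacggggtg
Ndufb7, chr8:83566508-83566807, plus strand: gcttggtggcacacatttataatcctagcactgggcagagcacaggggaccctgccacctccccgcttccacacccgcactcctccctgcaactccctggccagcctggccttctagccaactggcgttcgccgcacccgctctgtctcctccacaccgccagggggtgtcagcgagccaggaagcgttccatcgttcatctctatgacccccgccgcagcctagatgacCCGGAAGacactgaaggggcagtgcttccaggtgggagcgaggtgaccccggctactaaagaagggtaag
Uqcrc1, chr9:108936398-108936697, plus strand: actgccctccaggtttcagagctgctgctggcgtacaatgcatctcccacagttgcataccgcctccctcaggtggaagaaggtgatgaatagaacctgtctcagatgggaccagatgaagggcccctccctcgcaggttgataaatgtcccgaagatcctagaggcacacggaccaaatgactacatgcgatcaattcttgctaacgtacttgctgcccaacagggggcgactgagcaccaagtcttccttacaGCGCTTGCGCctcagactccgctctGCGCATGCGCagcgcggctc
Ndufs4, chr13:114388045-114388344, minus strand: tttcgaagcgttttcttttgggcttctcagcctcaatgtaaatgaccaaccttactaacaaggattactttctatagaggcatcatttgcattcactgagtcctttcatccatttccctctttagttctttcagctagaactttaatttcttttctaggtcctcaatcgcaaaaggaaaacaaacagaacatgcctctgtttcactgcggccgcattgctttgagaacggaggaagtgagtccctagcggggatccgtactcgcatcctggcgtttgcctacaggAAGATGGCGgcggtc
The capitals are CCGGAAG, the core that GABPA binds, at position -66 of Uqcr11 and -20 of Ndufb7. In Uqcrc1 they are the NRF1 motif, GCGCA and GCGC separated by 1 base of any kind, at positions 6 and 31, the first match being on the reverse strand. In Ndufs4 they are AANATGGCG, a YY1 motif, at position 36. RefSeq windows were matched by symbol for 65 of the 80 nuclear members and gave 70 windows. Searched on both strands, the NRF1 motif was present in 18 of these windows (25.7%) and in 4.60% of all 32851 promoter windows. GABPA matches were found in 16 member windows (22.9%) against 8.86% of all. The YY1 motif was in 10 (14.3%) against 2.38%. The E-box CACGTG, the hexamer that NPAS2 and its partner BMAL1 bind, was in 6 (8.57%) against 7.15%. A match is a description of the letters and says nothing of binding in this tissue.

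The KO-labelled library held 7161 nuclei with an estimated 3274 UMIs each, and the WT-labelled library 5578 nuclei with 4034 UMIs. Levels are counts of a gene per 10000 counts in the same nucleus, averaged over nuclei, and 3 UMIs correspond to 0.00128 and 0.00133. Ranges in parentheses after levels, ratios and folds are 95% intervals that cover counting error only. Npas2 itself was not lower in the KO-labelled library, at 1.39 against 1.29, a ratio of 1.08 (1.02 to 1.15). A 3' tag outside the deleted part would not check the allele. Log2 ratios are of the KO-labelled library over the WT-labelled library with a pseudocount of 0.01, and their median over the 12003 genes above a floor of 0.0461 was -0.06. Of the members, 12 mitochondrial and 76 nuclear genes were above that floor. Just inside it lay Cox7b2 at 0.0544 and 0.0547, and just outside lay Cox6a2 at 0.0197 and 0.0472, each in the KO-labelled library and then in the other.

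Transcripts of the mitochondrial genome were 4.39-fold lower in the KO-labelled library (4.33 to 4.45). Their summed level was 62.5 counts per 10000 in the WT-labelled library, or 0.625% of counts, and 14.2 in the KO-labelled library, or 0.142%. Each of the 12 mitochondrial genes past that floor was lower by 2-fold or more, a size that 2.37% of all genes above the floor reached. Their log2 ratios ran from -2.24 to -1.99 with a median of -2.15. The nuclear members were lower by far less. Their summed level was 46.2 in the WT-labelled library and 37.2 in the KO-labelled library, a ratio of 0.806 (0.797 to 0.815), and 0 of 76 reached 2-fold. The mitochondrial sum was thus 1.35 times the nuclear sum in the WT-labelled library and 0.383 times in the KO-labelled library.

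**Figure D1:**
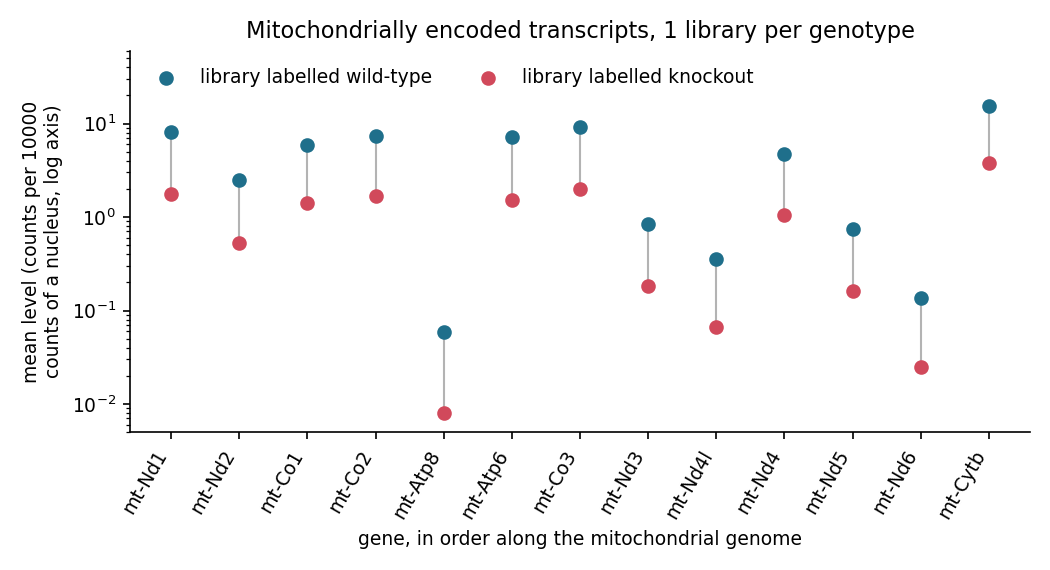
Mean level in counts per 10000 counts of a nucleus (log axis) of the 13 mitochondrially encoded genes in their order along the mitochondrial genome, 1 point per library. The point of the KO-labelled library lies below the other for each gene, by a similar distance across the 12 genes above the floor.

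Complex I, the NADH dehydrogenase, has 7 mitochondrial subunits, which form its proton-pumping membrane arm. Their summed level was 4.60-fold lower in the KO-labelled library (4.48 to 4.73). mt-Nd1, which sits where the membrane arm meets the matrix arm, was at 8.19 in the WT-labelled library and 1.77 in the KO-labelled library. mt-Nd4, a proton-pumping subunit, was at 4.67 and 1.05. The further pumping subunits mt-Nd2 and mt-Nd5 were at 2.47 and 0.524, and at 0.747 and 0.160. The smaller mt-Nd3 and mt-Nd4l were at 0.845 and 0.185, and at 0.351 and 0.0665. mt-Nd6, the only protein gene on the opposite strand, was at 0.138 and 0.0246. The gap between libraries was thus similar in genes whose levels differed widely, with log2 ratios from -2.24 in mt-Nd4l to -2.09 in mt-Nd6. The pseudocount of that scale understates the change of low genes and alters their order. Without it mt-Nd6 was the most reduced of these 7, at 5.58-fold lower (4.02 to 7.91). mt-Nd4 was then the least reduced, at 4.44-fold (4.22 to 4.67), and the intervals overlap.

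mt-Cytb encodes cytochrome b, the only mitochondrial subunit of complex III, the cytochrome bc1 complex. It was at 15.3 in the WT-labelled library and 3.82 in the KO-labelled library, 3.99-fold lower (3.89 to 4.10). Among the 12 genes this was the smallest difference, and its share of the mitochondrial sum was larger in the KO-labelled library, at 26.8% (26.3 to 27.4) against 24.4% (24.1 to 24.7). Shares of the other genes differed by fewer percentage points. mt-Nd1 made up 12.4% (12.0 to 12.8) against 13.1% (12.9 to 13.3), and mt-Co1 9.99% (9.63 to 10.4) against 9.50% (9.32 to 9.69).

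The catalytic core of complex IV, cytochrome c oxidase, is encoded by mt-Co1, mt-Co2 and mt-Co3. Their levels were 5.94, 7.43 and 9.25 in the WT-labelled library. In the KO-labelled library they were 1.42, 1.68 and 2.001, so the sum was 4.43-fold lower (4.33 to 4.53). In complex V, mt-Atp6, which forms part of the proton channel, was at 7.16 and 1.52. mt-Atp8, its small partner, was at 0.0587 and 0.00803, below the floor. Per kilobase of annotated gene, mt-Cytb (13.3), mt-Co3 (11.8), mt-Co2 (10.9) and mt-Atp6 (10.5) had the highest levels in the WT-labelled library, and mt-Nd6 (0.265), mt-Atp8 (0.288) and mt-Nd5 (0.409) the lowest. Since the assay reads a tag near the 3' end, a level per kilobase is not a measure of molecules per length.

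Of the 76 nuclear members above the floor, 72 were lower and 4 higher in the KO-labelled library. Among all 12003 genes, 59.2% were lower and 40.8% higher. The counting interval of the ratio lay below 1 in 63 members, against 31.4% of all genes, above 1 in Atp5o and Ndufs4, against 20.3%, and held 1 in 11. Reductions of at least 1.5-fold were seen in 6 of the 76 members, a share near the 6.91% of all genes. Among these were Cox6c, Uqcr11, Ndufb7, Cox5b and Cox6a1. None of the 76 was at least 1.5-fold higher, against 2.92% of all genes.

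**Figure D2:**
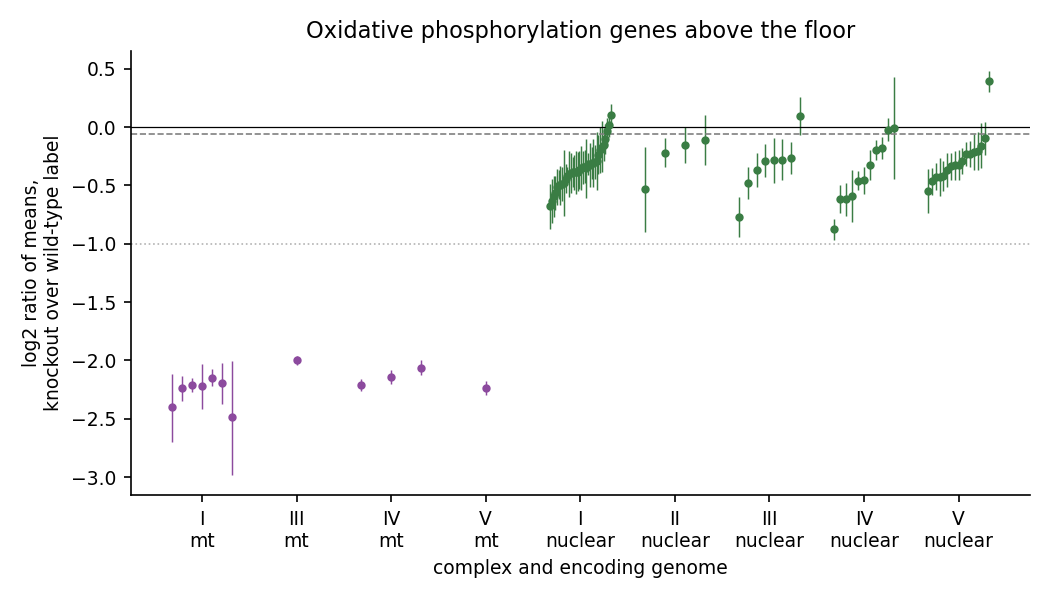
Log2 ratio of means, without the pseudocount, of the KO-labelled library over the WT-labelled library for each member above the floor, by complex and encoding genome. Bars are 95% counting intervals, the dashed line is the median of all genes (-0.06, with the pseudocount) and the dotted line marks 2-fold lower. The 12 mitochondrial genes lie below the dotted line and all 76 nuclear genes above it.

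For complex I, 34 of the 36 nuclear members above the floor were lower and 2 higher, and the median log2 ratio was -0.35. Ndufb7, an accessory subunit of the membrane arm, was at 0.208 in the KO-labelled library and 0.333 in the WT-labelled library, a log2 ratio of -0.66. At the other end stood Ndufs4, an accessory subunit whose loss in mice is a model of Leigh syndrome, at 1.14 and 1.06, a ratio of 1.07 (1.004 to 1.15). Ndufa10 was at 0.911 and 0.900, and its interval held 1 (0.941 to 1.09). Ndufa4, grouped here by its symbol and now assigned to complex IV, was at 1.43 and 1.91, a log2 ratio of -0.42. Its relative Ndufa4l2 was near the 3-UMI level, at 0.00341 and 0.00124, and no direction is read from it.

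Complex II, the succinate dehydrogenase, has only nuclear subunits, and its 4 members had a median log2 ratio of -0.18. Sdhd, which anchors the complex in the membrane, was at 0.0648 in the KO-labelled library and 0.0939 in the WT-labelled library, a ratio of 0.690 (0.536 to 0.888). Sdha, the flavoprotein that oxidises succinate, was at 0.567 and 0.661, a ratio of 0.859 (0.787 to 0.938). For the iron-sulfur subunit Sdhb (0.806 to 1.0015) and the anchor Sdhc (0.799 to 1.07) the interval of the ratio held 1.

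In complex III, 7 of 8 nuclear members were lower, with a median log2 ratio of -0.28. Uqcr11, a small subunit, was at 0.262 in the KO-labelled library and 0.446 in the WT-labelled library, a ratio of 0.586 (0.520 to 0.660). Uqcrh, the hinge protein that docks cytochrome c, had a log2 ratio of -0.47. Uqcrc1, a core protein of the matrix side, was at 0.389 and 0.365, and its interval held 1 (0.952 to 1.19). Uqcrb, which helps form the ubiquinone site, had a log2 ratio of -0.26, and the Rieske protein Uqcrfs1 one of -0.28.

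Complex IV had the lowest median of the nuclear groups, -0.45, and all 11 members above the floor were lower. Cox6c was at 0.899 in the KO-labelled library and 1.65 in the WT-labelled library, a ratio of 0.544 (0.511 to 0.579), the lowest of the 76 nuclear members. Cox5b, a subunit on the matrix side, was at 0.582 and 0.893, a log2 ratio of -0.61. Cox8a was at 1.32 and 1.82, a log2 ratio of -0.46. Cox7b and its isoform Cox7b2 were nearly equal in both libraries, with log2 ratios of -0.02 and -0.01. The liver-type Cox6a1, the form of most tissues, was at 0.417 and 0.640, and the heart and muscle form Cox6a2 at 0.0197 and 0.0472, a ratio of 0.418 (0.272 to 0.633). Cox7a2 was at 0.644 and 0.884, while its muscle form Cox7a1 was at 0.00323 and 0.00584 with an interval of the ratio that held 1 (0.159 to 1.76).

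Complex V members had a median log2 ratio of -0.32, 16 of 17 being lower. Atp5e, the epsilon subunit of the rotor stalk, was at 0.235 in the KO-labelled library and 0.344 in the WT-labelled library, a log2 ratio of -0.53. Atp5b, the catalytic beta subunit, was at 0.649 and 0.895, a log2 ratio of -0.46. Atp5g1, Atp5g2 and Atp5g3, which encode the same c-ring protein, had log2 ratios of -0.23, -0.36 and -0.32. Atp5j2 was at 0.455 and 0.487, and its interval held 1 (0.845 to 1.03). The row Atp5o, for a subunit of the peripheral stalk, was higher, at 1.45 and 1.11, a ratio of 1.31 (1.23 to 1.40). A second row, Atp5o.1, was at 0.389 and 0.451, a log2 ratio of -0.21. The annotation holds overlapping genes of this symbol on chromosome 16, and the second row carries no identifier, so the division of reads between them is uncertain.

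By sum, the ratio of the KO-labelled library over the other was 0.805 (0.792 to 0.819) for nuclear complex I, 0.871 (0.820 to 0.924) for complex II and 0.795 (0.766 to 0.825) for nuclear complex III. It was 0.752 (0.735 to 0.769) for nuclear complex IV and 0.852 (0.835 to 0.871) for nuclear complex V. Within each mixed complex the balance of genomes therefore differed between libraries. The mitochondrial sum over the nuclear sum was 0.246 against 0.913 in complex I and 1.28 against 4.07 in complex III, with the KO-labelled library first. In complex IV it was 0.645 against 2.15, and in complex V 0.157 against 0.633.

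Nuclear members are short genes, with a median annotated span of 7.78 kb against 30.4 kb for all genes above the floor, and the ratio varied with span. Both Atp5o rows are left out here because their reads cannot be divided with certainty, among them the row Atp5o, which has a span of 6.47 kb and was higher (log2 ratio 0.39). Among the other members under 10 kb, 49 of 49 were lower with a median log2 ratio of -0.36, while 66.8% of all genes of that span were lower with a median of -0.14. From 10 to 30 kb, 20 of 21 members were lower (median -0.29) against 63.7% of all genes (-0.09). At 30 kb or more, 2 of 4 members were lower, against 53.6% of all genes. The members of 30 kb or more include Ndufs4, with a span of 100 kb, Cox7b2 with 105 kb and Ndufa10 with 34.9 kb. Across these 74 members Spearman's rho of span with log2 ratio was 0.35, and across 11991 genes it was 0.17. These are correlations across genes of the same pair of libraries, and genes are not independent replicates.

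**Figure D3:**
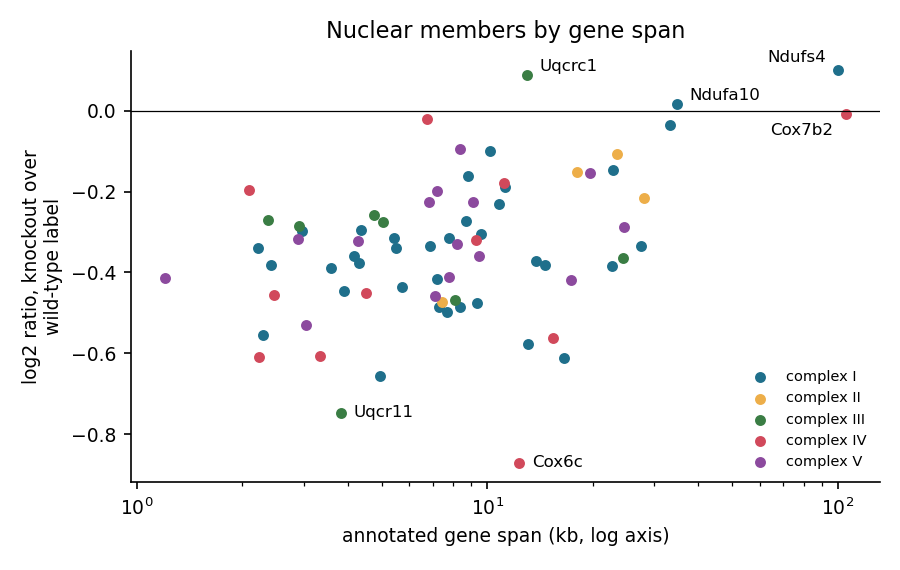
Log2 ratio of the KO-labelled library over the WT-labelled library (pseudocount 0.01) against annotated gene span in kb (log axis), 1 point per nuclear member above the floor without the Atp5o rows (74 points), coloured by complex. All 49 of these members under 10 kb lie below 0, and Ndufs4 and Ndufa10, among the longest, lie at or just above it.

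Other mitochondrial and metabolic genes showed smaller or similar differences. Their counts of lower genes stand against 59.2% of all genes. Of the mitochondrial ribosomal proteins above the floor, 63 of 75 were lower (median log2 ratio -0.21), led by Mrpl46 (-0.74), Mrps30 (-0.63) and Mrpl39 (-0.60). Respiratory chain assembly factors were lower in 18 of 29 and higher in 11 (median -0.16), a split near that of all genes. Their intervals lay below 1 in 8 and above 1 in 3, and the most changed were Sdhaf1 at -0.81, Ndufaf8 at -0.66 and Uqcc2 at -0.55. For the tricarboxylic acid cycle, 10 of 13 were lower and 3 higher (median -0.10), and the most changed were Suclg2 (-0.84), Fh1 (-0.64) and Mdh2 (-0.44). Genes for mitochondrial DNA upkeep and transcription were lower in 10 of 13 and higher in 3 (median -0.14), with Mterf1b at -0.50, Mterf1a at -0.40 and Slirp at -0.29. Import genes were lower in 16 of 23 and higher in 7 (median -0.22), with Timm17b at -0.86 and Tomm70a at -0.46, while Tomm20l was at 0.41. In glycolysis, 13 of 16 were lower and 3 higher, these with intervals above 1 (median -0.36), and the most changed were Aldoc (-0.84), Pkm (-0.78) and Pgam1 (-0.61). Members of the respiratory chain whose symbols fall outside the rule, such as Cox4i1 at 1.62 in the KO-labelled library and 1.96 in the other, were lower in 4 of 4 above the floor (median -0.26), with Cycs at -0.32 and Cyc1 at -0.24. The regulators of mitochondrial genes differed in direction. Of 7, 4 were higher, with a median of 0.20, and Ppargc1a, which encodes the coactivator PGC-1alpha, was at 1.27 against 0.869, a ratio of 1.47 (1.37 to 1.57). Ppargc1b followed with a log2 ratio of 0.24 and Esrrg with one of 0.20.

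Transcripts of cytoplasmic and of nuclear location also differed between the libraries. Cytosolic ribosomal protein genes were lower in 73 of 75 (median -0.50), a larger shift than the median of the nuclear members, with Rps21 at -0.87, Rpl7a at -0.83 and Rps6 at -0.79. Of 6 RNAs retained in the nucleus, 2 were lower and 4 higher (median 0.08). Malat1, the most abundant of them, was at 994 in the KO-labelled library and 1220 in the WT-labelled library. Neat1 had a log2 ratio of -1.84, and Mirg one of 0.36. Mitochondrial transcripts are not made in the nucleus, and in nuclei they depend on what is carried through isolation. The part of such carry-over in the difference was not tested, and with 1 library per genotype it cannot be told apart from genotype.

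The libraries also differed in the clusters their nuclei came from, and the table gives levels for 23 numbered clusters that pool both libraries. The shares of each cluster's nuclei by library are approximate estimates, least certain in small clusters. Nuclei of the WT-labelled library made up an estimated 85.2% of cluster 6, which raised 10 of 10 markers of striatal spiny projection neurons although the label is cortex. They made up 70.9% of the oligodendrocyte-like cluster 8 and 18.7% of the inhibitory neuron-like cluster 4. If every cluster had its pooled level in both libraries, the estimated proportions would give log2 ratios of -0.21 for the mitochondrial sum and -0.08 for the nuclear sum. The measured values were -2.13 and -0.31. Pooled levels hold part of any difference inside clusters, and the proportions are approximate.

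Across clusters the mitochondrial sum varied 2.97-fold. It was highest in cluster 6 at 58.8 (57.8 to 59.9) and in cluster 8 at 58.6 (56.7 to 60.5), whose intervals overlap. Cluster 14 followed at 53.8 (51.4 to 56.2), and cluster 19, with markers of oligodendrocytes and their precursors, at 49.5. Cluster 14 raised 8 of 8 astrocyte markers and 7 of 8 endothelial ones. It also raised 8 of 10 microglia, 7 of 9 oligodendrocyte and 6 of 8 oligodendrocyte precursor markers. The lowest levels were 19.8 (18.5 to 21.2) in cluster 17, 21.9 (19.9 to 24.0) in the excitatory neuron-like cluster 20, whose interval overlaps it, and 25.3 in cluster 4. Cluster 17 raised 3 of 5 Vip interneuron markers but 1 of 7 inhibitory ones, and is given no name here. Every cluster lay between the library means, above the 14.2 of the KO-labelled library and below the 62.5 of the other. How far the proportions of clusters account for the difference between the libraries was not tested.

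The order of clusters in mitochondrial level followed the share of their nuclei from the WT-labelled library, with Spearman's rho of 0.77 over 23 clusters and 0.72 over the 20 clusters of at least 100 nuclei. The sums of the libraries were 62.5 and 14.2, so pooling alone would make a cluster's level rise with this share. The order above therefore cannot be read as an order of cell types. All clusters are averages over the same 2 libraries, and no cluster level can be divided by genotype from the table.

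**Figure D4:**
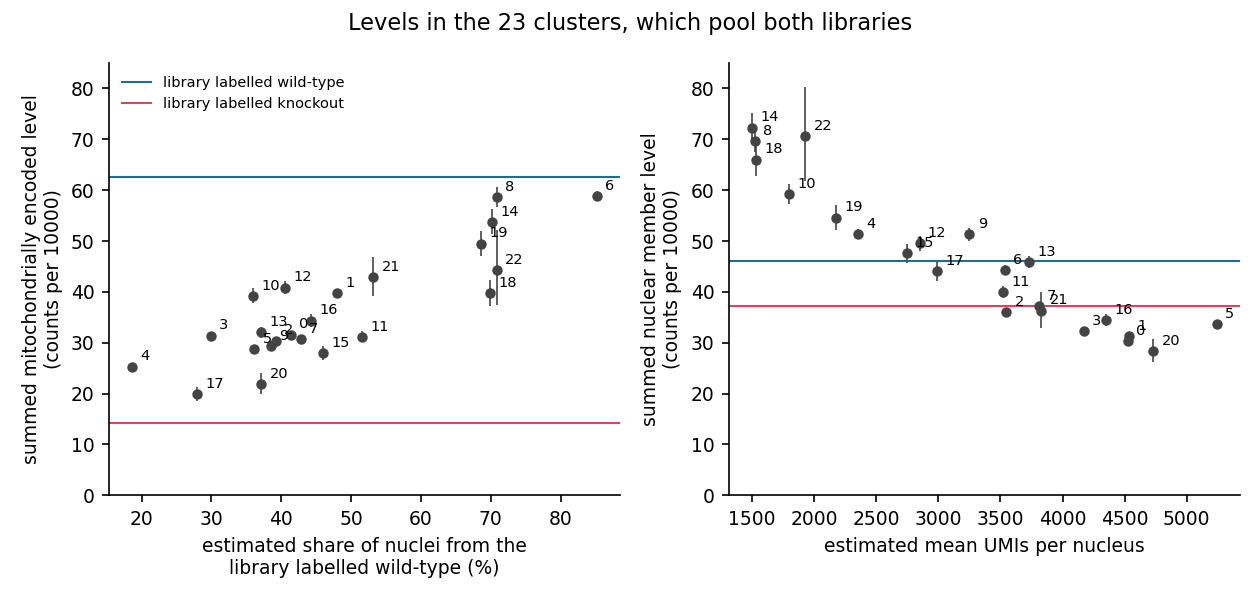
Summed level of mitochondrially encoded members against the estimated share of nuclei from the WT-labelled library (left), and of nuclear members against the estimated mean UMIs per nucleus (right), in counts per 10000, 1 numbered point per cluster with its 95% counting interval. Horizontal lines are the library means, which bound all 23 clusters on the left (14.2 and 62.5) but not on the right (37.2 and 46.2).

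The nuclear sum had a different order. It was highest in cluster 14 at 72.3 (69.5 to 75.2), cluster 22 at 70.6 (61.8 to 80.3) and cluster 8 at 69.6 (67.6 to 71.7), whose intervals overlap, followed by the microglia-like cluster 18 at 66.0. It was lowest in the excitatory neuron-like clusters 20 at 28.4 (26.1 to 30.8) and 0 at 30.3 (29.9 to 30.8). Spearman's rho with the estimated mean UMIs per nucleus was -0.95 over 23 clusters, with the share of the WT-labelled library 0.37, and with the cytosolic ribosomal sum 0.97. Clusters of few UMIs were thus those where these short, widely used genes took the largest share of counts. Some clusters of nearer depth are listed here, and how far depth accounts for their levels was not tested. Cluster 9, which raised 7 of 7 inhibitory markers and 4 of 4 of Pvalb interneurons, was at 51.4 (50.1 to 52.7) with 3250 UMIs per nucleus. The excitatory neuron-like cluster 2 was at 36.0 (35.4 to 36.6) with 3549, and the inhibitory neuron-like cluster 11 at 40.0 (38.8 to 41.2) with 3524. Cluster 6 was at 44.3 (43.4 to 45.2) with 3538, and the inhibitory neuron-like cluster 13 at 45.9 (44.7 to 47.1) with 3729.

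The balance of genomes also varied across clusters. The mitochondrial over the nuclear sum was 1.33 in cluster 6 and 1.27 in the unnamed cluster 1, and 0.450 in cluster 17, 0.493 in cluster 4 and 0.571 in cluster 9. In that order, an estimated 85.2%, 48.0%, 28.0%, 18.7% and 38.5% of their nuclei came from the WT-labelled library. Pooling makes the mitochondrial sum rise with this share, so this ratio too cannot be read as an order of cell types. Of the nuclear members above the floor, 30 were highest in cluster 22, which held 20 nuclei, 13 each in clusters 14 and 18, and 9 in cluster 8. Another 5 were highest in cluster 9. Among these were Ndufs4, at 1.71, Ndufa10, at 1.24, and Cox7b, at 1.85. Next highest were cluster 11 for Ndufs4 at 1.52, cluster 13 for Ndufa10 at 1.19 and cluster 18 for Cox7b at 1.68. Intervals by cluster were not computed for Ndufs4 and Ndufa10. Per member, the median Spearman's rho with the nuclear sum over clusters was 0.79 for nuclear genes, and Ndufc2, a membrane arm subunit of complex I, followed it most closely at 0.97. For the 12 mitochondrial genes the median rho with the mitochondrial sum was 0.91. Each sum was taken without the member itself.

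Levels by cluster are given here for some isoforms of complex IV, of which Cox6a2 lay below the floor. Cox6a2, known in brain from parvalbumin interneurons, was highest in cluster 9 at 0.183 (0.115 to 0.276). It was at 0.0153 (0.00736 to 0.0280) in the excitatory neuron-like cluster 0 and at 0.00315, below 1 estimated UMI, in the inhibitory neuron-like cluster 13. Cluster 21, with 37 nuclei, was next at 0.135 (0.0102 to 0.569). Clusters 10 and 12, each with 7 of 7 inhibitory markers raised, followed at 0.0817 (0.0276 to 0.187) and 0.0809 (0.0335 to 0.163). Cluster 10 also raised 8 of 8 markers of neuroblasts or dividing cells. Of the other 22 clusters, 11 had an interval or, where listed at 0, a 3-UMI limit that overlaps the interval of cluster 9, and 11 lay below it. Cox6a1 in cluster 9 was at 0.532 (0.410 to 0.678), inside its range over the other clusters. Cox7b, at 1.85 (1.61 to 2.11), was also highest in cluster 9. So was Cox7b2, at 0.157 (0.0949 to 0.246), which was at 0.0678 (0.0495 to 0.0908) in cluster 0. Cox7b2 was listed at 0 in clusters 10, 18, 21 and 22, where 3 UMIs would allow up to 0.0382, 0.102, 0.212 and 0.777. By the same measure 14 of the other 22 clusters overlap cluster 9, the nearest being cluster 14 at 0.120 (0.0344 to 0.301), and 8 lay below it.

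**Figure D5:**
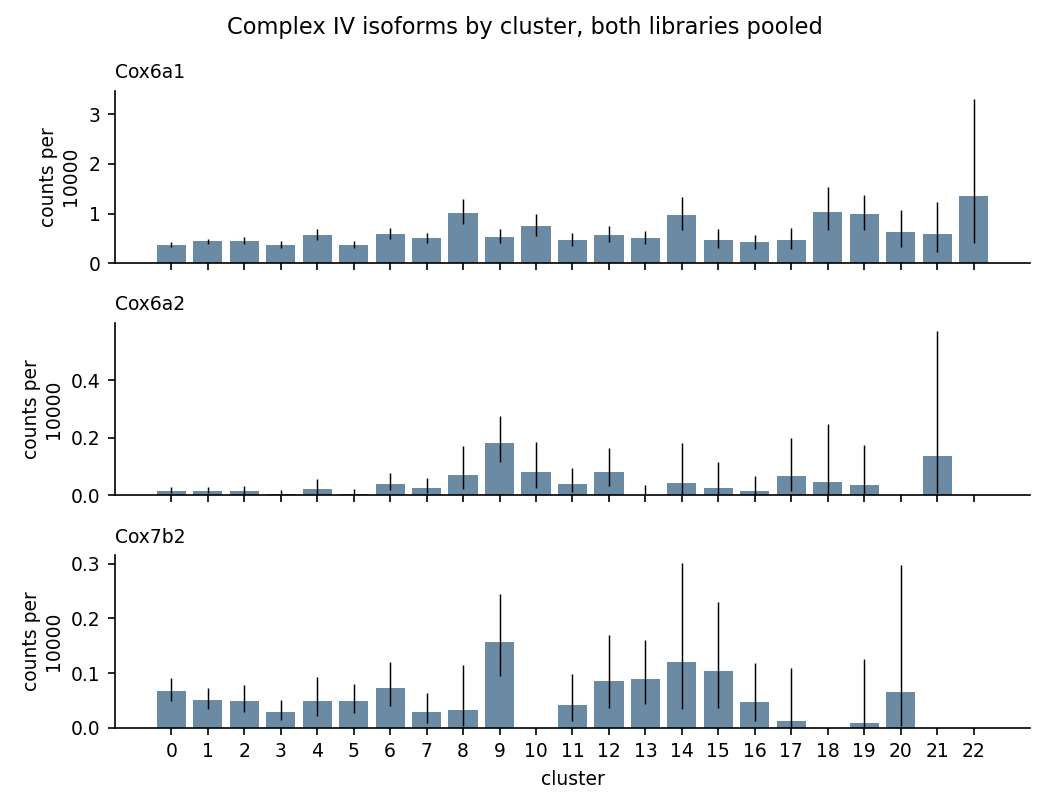
Level in counts per 10000 of Cox6a1, Cox6a2 and Cox7b2 in each of the 23 clusters, both libraries pooled, with 95% counting intervals as lines. Cox6a2 and Cox7b2 are highest in cluster 9 (0.183 and 0.157), where Cox6a1 (0.532) is within the range of the other clusters.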

How the data were processed

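Per the labels' protocols, nuclei were sequenced from 3' tags (10x Genomics v3.1), in 1 library per genotype. Reads were placed on mm10, per the submitters' processing notes, and no source used here names the aligner, filters, doublet treatment or cell types of clusters. The authors deposited average normalized expression, a non-negative linear signal, per genotype and for 23 clusters. Each column sums to 10000 over 31053 genes.

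Numbers of nuclei were computed as the smallest whole weights, within 0.001, that equate the weighted library and cluster columns. Depth and the libraries' shares of each cluster were estimated from 9338 values of 1 UMI (tolerance 0.0001) in 4155 of 7339 rare genes searched, those listed in at most 10 clusters. On simulated data the numbers of nuclei and mean depths were recovered, but the shares of single clusters only roughly, worst in the smallest cluster, so no cluster's departure from its library mix is reported. The shares assume that, within a cluster, these rare genes weigh equally in both libraries apart from 1 common factor.

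Log2 ratios used a pseudocount of 0.01, which understates low genes, and genes were kept at a mean of at least 0.0461, the median of the 24005 above 0. The 95% Clopper-Pearson intervals use estimated UMI numbers and replace those planned for counts. Positions of 92 members came from GENCODE M21 by identifier. Members and lists were chosen with earlier results of these data known. Named genes were all mitochondrial members, per complex the 2 lowest, 2 highest and most abundant nuclear members, members at the floor, isoform pairs, members against their complex's direction, Npas2 and up to 3 genes of each list. A gene that the rule takes is not reported here. Other genes named by role or cluster (Uqcrfs1 and Ndufc2 among them), and the 4 promoters, were chosen after their values were seen. A marker was called raised in a cluster if its level was at least 0.05 and at least 2 times the median over clusters. Analysis used Python 3.11.15, numpy 2.4.6, scipy 1.17.1, pandas 2.3.3 and matplotlib 3.10.9.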

Additional observations from a re-analysis of the deposited data

How the results depend on the processing

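No paired analysis was possible because each genotype has 1 library. Scaling the libraries to the median ratio of all genes put the log2 ratio of the mitochondrial sum at -2.07 and of the nuclear sum at -0.25. Rescaling without Malat1 and the mitochondrial genes put them at -2.18 and -0.36, and subtracting the ratio that the nuclei per cluster would give, at -1.92 and -0.23. The mitochondrial median was -2.02 with a pseudocount of 0.1 and -1.91 after that subtraction. With a threshold of 1.5-fold, 6 nuclear members were lower instead of 0. The other 55 values, under these settings, no floor or no pseudocount, or under alternatives chosen after seeing the data (without the Atp5o rows and Atp5s, and clusters of at least 100 nuclei), moved by less than a tolerance from counting error or, for counts of genes, by less than 1.5 times. For medians that tolerance was the typical counting error of a single gene, not of the median. In complex II it was 0.185, beside a median of -0.183. Both rescalings shift each median by a constant below its tolerance, so they could not count as a move. The highest and lowest clusters in mitochondrial level, 6 and 17, hold 683 and 202 nuclei, so the limit of 100 nuclei could not move their ratio. All 12 mitochondrial genes above the floor passed 2-fold, so the 1.5-fold threshold could not change their count. No result changed direction. The subtraction rests on approximate shares and also removes part of any difference inside clusters. Ranges cover counting error only, and neither the spread between mice nor between libraries can be measured here.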
